A study of Mus musculus with 6 samples.

Results

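The genes described here are 9 natriuretic peptide receptor and cyclic GMP (cGMP) genes of the mouse aorta, taken as the rows of the deposited table that carry the symbols Npr1, Npr2, Npr3, Gucy1a1, Gucy1b1, Prkg1, Pde5a, Pde1a and Pde3a. All 9 were among the 32771 genes of the table, each in a single row, and all 9 were among the 19241 genes with enough counts to be tested. RNA was sequenced from 6 aorta libraries of wild-type mice, and every mouse had been given AngII/BAPN, angiotensin II together with the lysyl oxidase inhibitor beta-aminopropionitrile, a combination used to injure the aortic wall. In 3 libraries (replicates 5, 7 and 39) the mice had also received an antibody to CTHRC1, a protein that activated fibroblasts secrete. The other 3 (replicates 14, 18 and 20) were the controls with an isotype IgG. Strain, age, sex and the length of treatment are not given in the sources used here, and no library without AngII/BAPN was analysed here. The labels do not say that each library came from its own animal. The p-values below therefore set the group difference against the spread between these libraries, and do not by themselves extend to animals.

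Natriuretic peptides and nitric oxide are signals that relax the vessel wall through the same nucleotide, cGMP. NPR1 and NPR2 are membrane receptors that make cGMP when they bind a natriuretic peptide, NPR3 removes the peptides from the circulation, and soluble guanylyl cyclase, a pairing of an alpha and a beta subunit, makes cGMP when it binds nitric oxide. In smooth muscle cGMP acts mainly through the protein kinase encoded by Prkg1, and phosphodiesterases end the signal by cleaving the nucleotide.

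Total counts ran from 64556253 to 67859566 per library, and the 9 genes had between 578 and 9621 counts in each library. The tissue label was checked on smooth muscle and endothelial genes. Acta2 and Myh11, of the contractile apparatus of smooth muscle, averaged 1726 ± 801 and 773 ± 321 CPM (counts scaled to library size) after anti-CTHRC1 and 2702 ± 1100 and 1170 ± 533 CPM after IgG (SD, n = 3 each). Pecam1 and Cdh5, of endothelial cells, were at 231 CPM or more and 161 CPM or more in every library. Some libraries stood apart. Anti-CTHRC1 39 lay between anti-CTHRC1 5 and 7 in 96.0% of the 1752 genes in which those differed by over 0.5 on the log2 scale at a mean of 10 CPM or more, and in 7 of the 9 genes described here, so independence among the antibody libraries was not shown. In IgG 14, 319 genes were at least 4-fold above all 5 other libraries with 1 CPM added to each value, where the others had 1 to 3 such genes. Values without these libraries are given beside the results that moved with them.

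Of the 9 genes, Pde1a passed the test between the groups, and it was lower after the antibody. The other 8 did not pass, and 7 of them had negative log2 fold changes. The call rule was an adjusted p under 0.05 in edgeR's quasi-likelihood test with Benjamini-Hochberg adjustment over all tested genes. It took in 1 of 9 members, where it called 0.317% of all genes and called 0.213% of them lower. At an unadjusted p under 0.05 there were 3 members, Prkg1, Pde1a and Pde3a, all lower, against 17.1% of all genes in either direction and 9.31% lower. The libraries of the groups did not overlap in 2 of 9 members, Prkg1 and Pde1a, both lower, where 22% of all genes did not overlap and 11% did so with the antibody libraries lower. DESeq2 called 1 of 9, again Pde1a, and 7.48% of all genes, with 4.7% called lower. The median log2 fold change was -0.47 over the 9 genes and -0.02 over all genes tested.

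**Figure D1:**
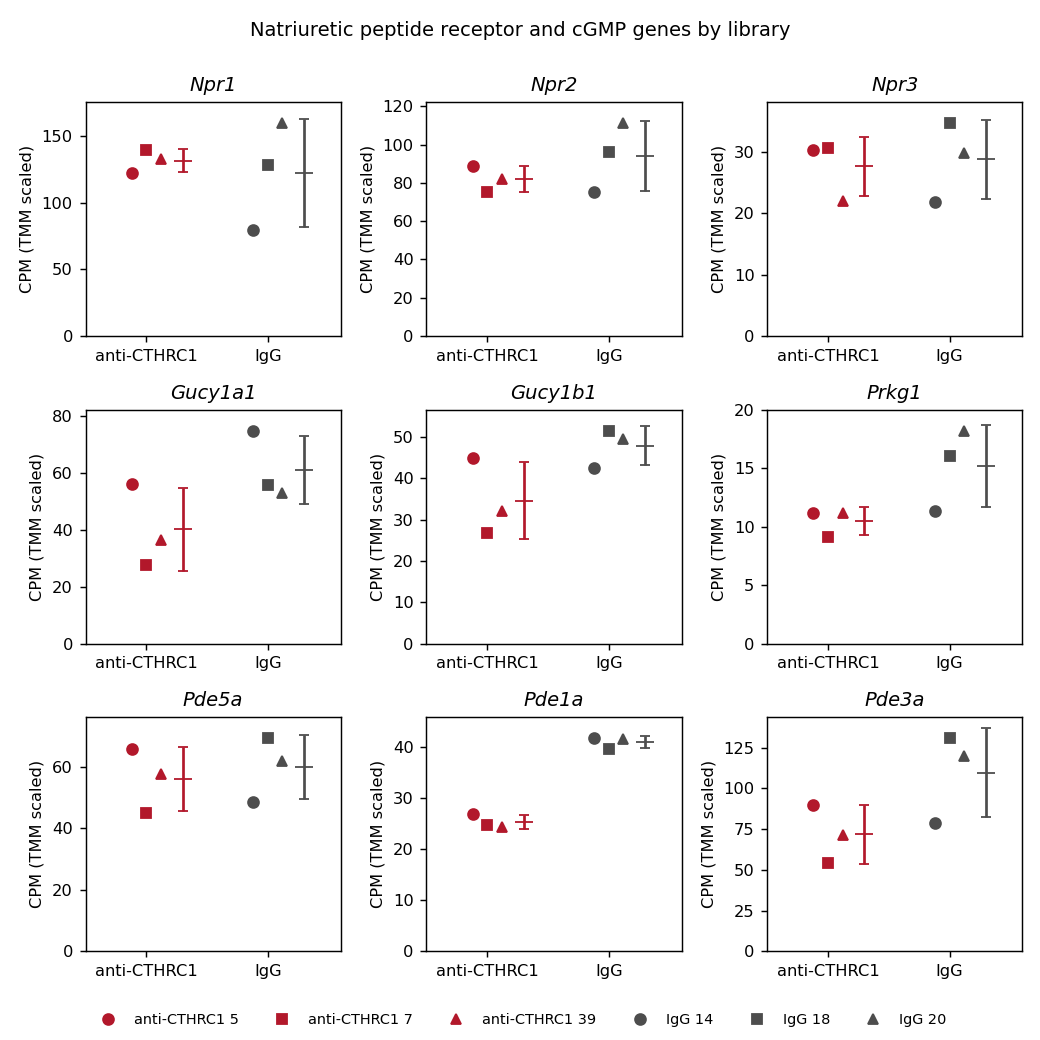
CPM scaled by TMM (y axis, linear, from 0) for each gene in the 3 anti-CTHRC1 libraries (red, left) and the 3 IgG libraries (grey, right). Symbols mark libraries, and the line and bars are the mean and SD of the group. Pde1a sits at 24.4 to 27.0 CPM after anti-CTHRC1 and 39.7 to 41.7 CPM after IgG, and Prkg1 is the other gene whose groups do not overlap.

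Pde1a encodes a phosphodiesterase that is switched on by calcium and calmodulin and cleaves cGMP, and also cyclic AMP (cAMP), in arterial smooth muscle. It was at 27.0, 24.7 and 24.4 CPM in anti-CTHRC1 5, 7 and 39 and at 41.7, 39.7 and 41.6 CPM in IgG 14, 18 and 20. All antibody libraries lay below all IgG libraries, and each group was tight. The means were 25.4 ± 1.39 CPM after anti-CTHRC1 and 41.0 ± 1.15 CPM after IgG (SD, n = 3 each). The level fell by 0.69 on the log2 scale (SE 0.093, 95% interval -0.91 to -0.47), a fall of 38.1%, with an adjusted p of 0.0496 in edgeR and 2.1e-05 in DESeq2. The edgeR adjusted p lies just inside the threshold, and Pde1a ranked number 60 of the 61 genes called.

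The log2 fold change of Pde1a kept its size in the other fits, but its edgeR call did not hold. Over every alternative fit the log2 fold change stayed between -0.74 and -0.63. Its ratio to the mean of a contractile smooth muscle list, given below, differed less. That difference was -0.22 with overlapping groups, and 0.074 without IgG 14. The edgeR adjusted p was 0.0495 without IgG 14. It was 0.0797 without anti-CTHRC1 5, 0.268 without anti-CTHRC1 7, 0.423 without anti-CTHRC1 39, 0.151 without IgG 18 and 0.0613 without IgG 20, so the edgeR call was lost without any of these 5 libraries. DESeq2 called Pde1a without each of the 6, with adjusted p up to 0.000714. In edgeR all genes called numbered 0 to 2 without any 1 of anti-CTHRC1 5, 7 and 39 and IgG 18, and 190 and 227 without IgG 14 and IgG 20.

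Pde1a lies on chromosome 2, at 79834453 to 80129458 on the minus strand of GRCm38, and spans 295 kb. RefSeq (GRCm38.p6) gives it 4 promoter windows, each running from 250 bases before to 50 bases after an annotated transcript start. The windows of the starts nearest to the 5′ end of the gene are shown because Pde1a is the member that passed the test. They are read 5′ to 3′ on the gene's strand. The window at chr2:80129363-80129662 has capitals at its matches to the CCAAT box, and the window at chr2:80128922-80129221 has capitals at a match to the TATA box. The windows of the members were searched on both strands for the letters CCAAT (the CCAAT box), TATAAA (the TATA box) and GGGCGG (the GC box), and for the CArG box, which serum response factor binds in many smooth muscle genes.
Pde1a, first window: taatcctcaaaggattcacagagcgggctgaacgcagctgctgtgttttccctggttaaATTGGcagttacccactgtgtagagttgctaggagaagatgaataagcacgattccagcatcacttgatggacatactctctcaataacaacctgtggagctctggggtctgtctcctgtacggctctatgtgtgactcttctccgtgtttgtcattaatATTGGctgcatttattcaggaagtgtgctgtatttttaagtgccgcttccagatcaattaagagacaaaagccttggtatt
Pde1a, next window: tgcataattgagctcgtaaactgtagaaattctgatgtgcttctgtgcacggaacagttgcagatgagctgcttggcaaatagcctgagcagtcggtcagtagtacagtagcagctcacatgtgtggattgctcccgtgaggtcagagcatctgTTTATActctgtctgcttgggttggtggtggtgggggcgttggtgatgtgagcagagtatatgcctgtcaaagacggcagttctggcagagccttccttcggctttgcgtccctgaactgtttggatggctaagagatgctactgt
The capitals ATTGG and TTTATA are the CCAAT and TATA letters read from the other strand. In the 32851 windows of all genes, 37.4% held a CCAAT box, 13.6% a TATA box, 35.7% a GC box and 1.63% a CArG box. No CArG box was found in the 13 windows of the 8 members that matched the table. Pde3a did not match. The GC content of the Pde1a windows was 44.3%, 50.3%, 43.3% and 42%, all below the median of 52.7% over all windows. Only Npr3 (39%) and Gucy1b1 (52.3%) among the other matched members also had a window below it. These matches describe the letters only.

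The close relatives of Pde1a were also read. Pde1b, another calcium-activated phosphodiesterase, was at 8.35, 7.57 and 9.63 CPM in the antibody libraries and 17.4, 14.4 and 13.7 CPM in the IgG libraries. Its groups did not overlap, and its log2 fold change of -0.83 (SE 0.16) did not pass in edgeR (adjusted p = 0.104) and passed in DESeq2 (adjusted p = 0.00187). Pde1c, the third gene of the family, was at 0.060, 0.88 and 1.17 CPM after anti-CTHRC1 and 5.83, 3.12 and 0.48 CPM after IgG, with overlapping groups. On the scale per length, FPKM, Pde1b averaged 1.46 ± 0.195 after anti-CTHRC1 and 2.76 ± 0.609 after IgG, and Pde1c 0.031 ± 0.025 after anti-CTHRC1 and 0.15 ± 0.14 after IgG. Both were below Pde1a, at 3.92 ± 0.30 FPKM after anti-CTHRC1 and 6.65 ± 0.669 FPKM after IgG.

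Levels of cell type markers also differed between the libraries, and in bulk tissue fewer cells of a type and less RNA per cell cannot be told apart. Of 20 contractile smooth muscle markers, 19 had negative log2 fold changes, with a median of -0.56 and a summed level of 3993 to 8401 CPM after anti-CTHRC1 and 5618 to 11742 CPM after IgG. Of 16 adipocyte markers, 16 were positive, with a median of 1.16 and summed levels of 7133 to 12795 CPM after anti-CTHRC1 and 3642 to 7558 CPM after IgG. Of 15 macrophage markers, 14 were negative, and their sums of 1005 to 1434 CPM after anti-CTHRC1 and 1802 to 2455 CPM after IgG did not overlap. Of 15 adventitial fibroblast markers, 12 were positive, with sums of 9181 to 10779 CPM after anti-CTHRC1 and 6975 to 7677 CPM after IgG, again with no overlap. No marker of these 4 lists was at 0 in any library. In edgeR Lep of the adipocyte list passed (higher), as did Mpeg1 of the macrophage list (lower), and no contractile or fibroblast marker did. DESeq2 called 2 contractile and 8 macrophage markers lower, and 9 adipocyte and 6 fibroblast markers higher. Of all genes edgeR called 0.317%, and DESeq2 called 2.78% higher and 4.7% lower. Of 10 mesothelial markers, 10 were negative, with a median of -2.56, and 0 passed in edgeR (4 lower at an unadjusted p under 0.05) while 3 did in DESeq2. Their sums were 7.15 to 10.4 CPM after anti-CTHRC1 and 34.3, 125 and 6.15 CPM in IgG 14, 18 and 20, and Krt19 and Muc16 were at 0 in 1 library each. The part of mesothelial RNA in the Pde1a difference was not tested. With the mean of the contractile list as a covariate the Pde1a log2 fold change was -0.68 (adjusted p = 0.121, edgeR), while the adipocyte mean as covariate gave -0.64 (adjusted p = 0.999, edgeR). The adipocyte mean did not overlap between the groups, so that list and the antibody cannot be told apart. The part of macrophage and fibroblast RNA in the Pde1a difference was not tested.

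The kinase gene Prkg1 had the lowest level of the 9 per length (FPKM). It was at 11.2, 9.10 and 11.2 CPM in anti-CTHRC1 5, 7 and 39 and at 11.4, 16.1 and 18.2 CPM in IgG 14, 18 and 20. The groups did not overlap, but IgG 14 was close to the upper antibody libraries. The means were 10.5 ± 1.21 CPM after anti-CTHRC1 and 15.2 ± 3.50 CPM after IgG (SD, n = 3 each). Its log2 fold change was -0.53 (SE 0.20, 95% interval -1.02 to -0.05), and it did not pass in edgeR (adjusted p = 0.26) or DESeq2 (adjusted p = 0.172). Without IgG 14 the value was -0.71, with an adjusted p of 0.101 in edgeR and 0.00736 in DESeq2, and without IgG 20 it was -0.35 (adjusted p = 0.462, edgeR). Prkg1 spans 1201 kb of chromosome 19 (30564489 to 31765033, minus strand).

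Pde3a encodes a phosphodiesterase that cleaves cAMP and is held back by cGMP, and so links the 2 nucleotides. It was at 89.8, 54.1 and 71.2 CPM in anti-CTHRC1 5, 7 and 39 and at 78.7, 131 and 119.7 CPM in IgG 14, 18 and 20. Anti-CTHRC1 5 lay above IgG 14, and the other antibody libraries lay below all IgG libraries. The log2 fold change was -0.61 (SE 0.25, 95% interval -1.20 to -0.02), with adjusted p of 0.28 in edgeR and 0.123 in DESeq2. DESeq2 called it without anti-CTHRC1 5 (-0.81, adjusted p = 0.0373) and without IgG 14 (-0.80, adjusted p = 0.0106). The contractile and adipocyte covariates gave -0.23 and -0.25.

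Pde5a encodes the phosphodiesterase that is specific for cGMP and is the target of sildenafil. It was at 65.7, 44.9 and 57.7 CPM in anti-CTHRC1 5, 7 and 39 and at 48.5, 69.2 and 62.0 CPM in IgG 14, 18 and 20. The groups overlapped over most of their range. Its log2 fold change was -0.10 (SE 0.19, 95% interval -0.54 to 0.35, adjusted p = 0.837, edgeR), an interval that leaves room for a change of either sign. It was 0.05 without anti-CTHRC1 7 and 0.02 without IgG 18.

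**Figure D2:**
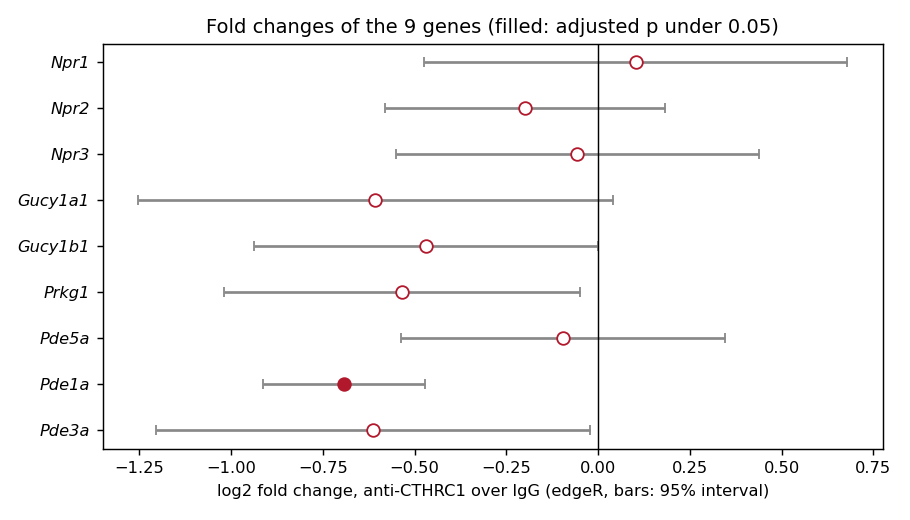
Log2 fold change of each gene, anti-CTHRC1 over IgG, from edgeR (x axis), with bars for the 95% interval. The filled point, Pde1a at -0.69, passed an adjusted p of 0.05. The intervals of Prkg1 and Pde3a also lie below 0, but their adjusted p of 0.26 and 0.28 did not pass.

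Gucy1a1 and Gucy1b1 encode the alpha and beta subunits of the soluble guanylyl cyclase of the vessel wall. Both lie on the minus strand of chromosome 3, Gucy1b1 at 82032006 to 82074689 and Gucy1a1 at 82092427 to 82145789, with 17.7 kb and 0 other genes of the table between them. Gucy1a1 was at 56.4, 27.8 and 36.5 CPM in anti-CTHRC1 5, 7 and 39 and at 75.0, 55.9 and 52.9 CPM in IgG 14, 18 and 20. Gucy1b1 was at 44.9, 26.9 and 32.0 CPM in the antibody libraries and at 42.5, 51.5 and 49.6 CPM in the IgG libraries. In both genes anti-CTHRC1 7 was lowest, anti-CTHRC1 39 was next, and anti-CTHRC1 5 reached into the range of the IgG libraries. They differed in IgG 14, which was the highest library for Gucy1a1 and the lowest IgG library for Gucy1b1.

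Neither subunit passed the test. The log2 fold change of Gucy1a1 was -0.61 (SE 0.27, 95% interval -1.25 to 0.04), with adjusted p of 0.317 in edgeR and 0.173 in DESeq2. That of Gucy1b1 was -0.47 (SE 0.20, 95% interval -0.94 to 0.00), with adjusted p of 0.292 in edgeR and 0.2 in DESeq2. Without anti-CTHRC1 5 the values were -0.93 for Gucy1a1 and -0.70 for Gucy1b1, and DESeq2 called both (adjusted p = 0.00232 each), while edgeR did not (adjusted p = 0.139 and 0.12). Without anti-CTHRC1 7 they were -0.40 and -0.31, and without IgG 14 Gucy1a1 was at -0.44. The contractile covariate gave -0.54 for Gucy1a1 and -0.24 for Gucy1b1, and the adipocyte covariate 0.20, the opposite sign, for Gucy1a1 and -0.04 for Gucy1b1.

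The first promoter windows of both subunits are shown because the genes are neighbours. The order of the antibody libraries that their levels shared was not particular to them. Npr2, Prkg1, Pde5a, Pde3a and the mean of the contractile markers had it as well. They are at chr3:82145601-82145900 (Gucy1a1) and chr3:82074662-82074961 (Gucy1b1), both on the minus strand of GRCm38.p6, with GC boxes and CCAAT boxes in capitals.
Gucy1a1, first window: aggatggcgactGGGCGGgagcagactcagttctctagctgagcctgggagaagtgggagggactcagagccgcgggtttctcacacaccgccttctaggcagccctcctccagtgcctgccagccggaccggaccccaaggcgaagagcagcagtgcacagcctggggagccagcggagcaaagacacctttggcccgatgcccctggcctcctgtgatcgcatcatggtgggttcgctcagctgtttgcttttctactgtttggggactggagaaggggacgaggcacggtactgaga
Gucy1b1: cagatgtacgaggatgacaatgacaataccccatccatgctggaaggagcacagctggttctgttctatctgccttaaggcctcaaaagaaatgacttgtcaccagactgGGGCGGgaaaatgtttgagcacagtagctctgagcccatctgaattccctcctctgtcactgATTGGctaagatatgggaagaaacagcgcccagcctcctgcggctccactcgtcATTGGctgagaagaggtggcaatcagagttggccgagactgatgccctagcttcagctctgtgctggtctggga
Each held a single GC box, and the Gucy1b1 window held 2 CCAAT boxes, read as ATTGG from the other strand. Their GC content was 62.3% and 52.3%.

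None of the 3 receptors passed the test. Npr1, the receptor of the atrial and B-type peptides, was at 123, 139.6 and 133 CPM in anti-CTHRC1 5, 7 and 39 and at 79.6, 129 and 160.0 CPM in IgG 14, 18 and 20. The antibody libraries lay inside the range of the IgG libraries, of which IgG 14 was lowest. The means were 132 ± 8.62 CPM after anti-CTHRC1 and 123 ± 40.5 CPM after IgG (SD, n = 3 each), and the log2 fold change was 0.10 (SE 0.24, 95% interval -0.47 to 0.68, adjusted p = 0.868, edgeR). It was -0.13 without IgG 14 and 0.37 without IgG 20. The mean of 15 endothelial markers was also lowest in IgG 14, at 5.67 log2 CPM, where IgG 18 and 20 had 6.31 and 6.19 and the antibody libraries 6.01 to 6.19. The part of this in the Npr1 level was not tested.

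Npr2, the receptor of the C-type peptide, was at 89.0, 75.2 and 81.8 CPM in anti-CTHRC1 5, 7 and 39 and at 75.0, 96.2 and 111 CPM in IgG 14, 18 and 20. The groups overlapped through IgG 14, the lowest library by a small margin. Its log2 fold change was -0.20 (SE 0.16, 95% interval -0.58 to 0.18, adjusted p = 0.576, edgeR), and it ranged from -0.34 to -0.03 when single libraries were left out. Npr3, the clearance receptor, was at 30.4, 30.7 and 22.1 CPM in the antibody libraries and 21.9, 34.8 and 29.9 CPM in the IgG libraries. One library of each group was low, anti-CTHRC1 39 and IgG 14, and the rest overlapped. The log2 fold change of Npr3 was -0.06 (SE 0.21, 95% interval -0.55 to 0.44, adjusted p = 0.919, edgeR), with values from -0.22 to 0.10 when single libraries were left out. These intervals do not show that the receptors were equal in the groups.

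Levels of different genes were compared on the deposited FPKM scale, which divides by length. Npr1 was highest in both groups, at 25.6 ± 1.06 FPKM after anti-CTHRC1 and 24.5 ± 6.13 FPKM after IgG, and Npr2 was next, at 16.3 ± 1.78 FPKM after anti-CTHRC1 and 19.4 ± 2.06 FPKM after IgG (SD, n = 3 each). Prkg1 was lowest, at 0.884 ± 0.122 FPKM after anti-CTHRC1 and 1.32 ± 0.196 FPKM after IgG, and Npr3 was above it, at 2.74 ± 0.479 FPKM after anti-CTHRC1 and 2.96 ± 0.554 FPKM after IgG. The enzymes came between them. After anti-CTHRC1 the mean FPKM was 8.22 ± 2.41 for Gucy1b1, 5.40 ± 2.09 for Gucy1a1, 5.32 ± 1.12 for Pde5a, 5.25 ± 1.43 for Pde3a and 3.92 ± 0.30 for Pde1a. After IgG it was 11.8 ± 0.737 for Gucy1b1, 8.67 ± 2.50 for Gucy1a1, 8.29 ± 1.65 for Pde3a, 6.65 ± 0.669 for Pde1a and 5.90 ± 0.800 for Pde5a. In the antibody libraries neighbours in the order from Gucy1b1 down to Pde1a overlapped in range. In the IgG libraries Npr1 overlapped with Npr2, and neighbours from Gucy1b1 down to Pde5a overlapped likewise. Pde5a ranked number 5 after anti-CTHRC1 and number 7 after IgG, where it lay below Pde1a.

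**Figure D3:**
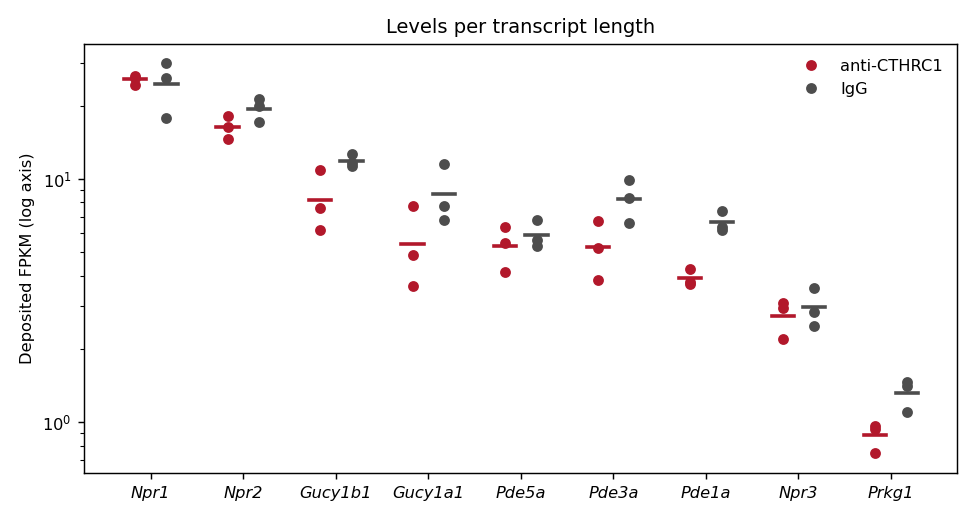
Deposited FPKM of the 9 genes (y axis, log scale), with anti-CTHRC1 libraries in red on the left and IgG libraries in grey on the right of each gene, and a line at each group mean. Npr1 and Npr2 are highest and Npr3 and Prkg1 lowest in both groups.

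Within single libraries the order of the receptors and of the subunits held. Npr1 was above Npr2 in FPKM in 6 of 6 libraries, by 1.04-fold to 1.81-fold, and Npr2 was above Npr3 in 6 of 6, by 4.93-fold to 7.49-fold. Gucy1b1 was above Gucy1a1 in FPKM in 6 of 6 libraries, by 1.01-fold to 1.71-fold. In CPM, which does not divide by length, Gucy1a1 was the higher in every library, by 0.05 to 0.82 on the log2 scale. The order of the subunits therefore rests on the length used for each gene, and so do some other positions. In mean CPM Pde3a was above Gucy1b1, at 71.7 and 34.6 after anti-CTHRC1 and 109.7 and 47.9 after IgG. Npr3 was above Pde1a in mean CPM after anti-CTHRC1 (27.7 and 25.4) and below it after IgG (28.8 and 41.0). In FPKM Pde3a was above Pde1a in 5 of 6 libraries and Pde5a above Pde1a in 4 of 6.

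Ratios within a library do not depend on library size, and 16 log2 CPM ratios were compared between the groups. Some were ratios of 2 genes, and the rest set each of the 9 members over the mean of the contractile smooth muscle list. The test was a two-sided exact permutation test, which for 3 against 3 libraries cannot give less than p = 0.1. The groups did not overlap in 3 of the 16, all of them ratios of 2 genes, and Pde5a was in all 3. Pde1a, Pde3a and Prkg1 were paired with no other gene than Pde5a, so its place in all 3 follows from the choice of pairs. Of single genes tested, 22% did not overlap, and the share over all pairs of genes was not computed. Pde1a over Pde5a averaged -1.13 ± 0.23 after anti-CTHRC1 and -0.53 ± 0.29 after IgG, a difference of -0.60 (exact permutation p = 0.1, 0.533 after Benjamini-Hochberg adjustment over the 16). Pde3a over Pde5a averaged 0.34 ± 0.10 after anti-CTHRC1 and 0.85 ± 0.14 after IgG, a difference of -0.51. Pde5a over Prkg1 averaged 2.40 ± 0.13 after anti-CTHRC1 and 1.99 ± 0.19 after IgG, a difference of 0.42 (both with exact permutation p = 0.1 and 0.533 after adjustment). Against Pde5a, Pde1a, Pde3a and Prkg1 were lower in every antibody library than in every IgG library. As Pde5a is shared, these are not 3 separate results, and none passed. The permutation p of 0.1 is the lowest that the design can give.

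The other ratios overlapped. Npr1 over Npr2 averaged 0.69 ± 0.22 after anti-CTHRC1 and 0.34 ± 0.23 after IgG, and Gucy1a1 over Gucy1b1 averaged 0.19 ± 0.14 after anti-CTHRC1 and 0.34 ± 0.41 after IgG, with IgG 14 at 0.82. Each member was also set against the mean of the contractile smooth muscle list. Relative to that list the differences, anti-CTHRC1 minus IgG, were -0.04 for Prkg1, -0.02 for Gucy1b1, -0.13 for Pde3a, -0.17 for Gucy1a1 and -0.22 for Pde1a, and they were 0.64 for Npr1, 0.43 for Npr3, 0.38 for Pde5a and 0.29 for Npr2. The groups overlapped in all 9 of these ratios. Without IgG 14 the differences were 0.05 for Prkg1, 0.17 for Gucy1b1, 0.26 for Gucy1a1 and 0.074 for Pde1a, and that of Gucy1a1 over Gucy1b1 was 0.084 against -0.15 on all libraries. Without anti-CTHRC1 39 that of Gucy1b1 was 0.025, without anti-CTHRC1 5 and IgG 20 in turn that of Prkg1 was 0.13 and 0.051, and without anti-CTHRC1 7 that of Npr3 over Npr2 was -0.0038 against 0.14.

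**Figure D4:**
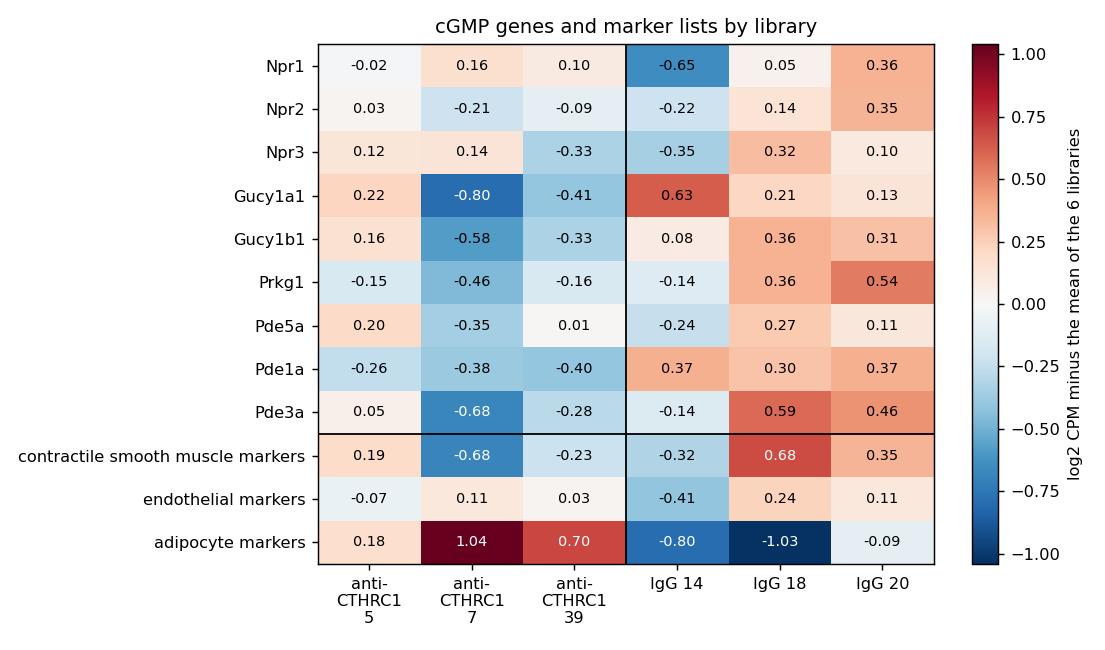
Log2 CPM of each gene, and mean log2 CPM of 3 marker lists, minus the mean over the 6 libraries (colour and number in each cell), with anti-CTHRC1 libraries on the left and IgG libraries on the right. Anti-CTHRC1 7 is low for Gucy1a1, Gucy1b1, Prkg1, Pde5a, Pde3a and the contractile markers, Pde1a splits by group, and Npr1 is lowest in IgG 14.

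The lowest library differed between the genes. Anti-CTHRC1 7 was the lowest of all 6 libraries in 5 of them, Gucy1a1, Gucy1b1, Prkg1, Pde5a and Pde3a, and it also had the lowest mean of the contractile markers, 6.69 log2 CPM, against 7.57 and 7.15 in anti-CTHRC1 5 and 39 and 7.06 to 8.06 in the IgG libraries. All 3 receptors were lowest in IgG 14. Pde1a was lowest in anti-CTHRC1 39, close to anti-CTHRC1 7.

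The wider pathway was read on a list of 61 other gene symbols, of which 57 were in the table and 52 were tested. In edgeR 0 passed, with 8 higher and 6 lower at an unadjusted p under 0.05, where 7.8% of all genes were higher and 9.31% lower. Of the same 52, DESeq2 called 4 higher and 3 lower. Of all 19241 genes tested in edgeR it called 584 higher and 863 lower. Of the 21182 genes with an adjusted p in DESeq2 it called 2.78% higher and 4.7% lower. With single libraries left out, DESeq2 called Nppa, Mme, Pde1b and Pde7b in 6 of 6 fits, and Corin, Ddah1 and Arg1 in 2 of 6. Of named genes that it did not call on all 6 libraries, it called Kcnma1 in 2 of 6 such fits. It called Nos2, Gucy2g, Prkg2 and Pde4b in 1 of 6 each. Of the 52, 28 had positive and 24 negative values, with a median of 0.15. Over all genes edgeR called the 0.317% given above, and the median was -0.02.

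Among the ligands, Nppa, the atrial natriuretic peptide gene, was at 2.19, 19.2 and 12.2 CPM in anti-CTHRC1 5, 7 and 39 and at 0.47, 0.24 and 0.10 CPM in IgG 14, 18 and 20. All antibody libraries were higher, with a spread of their own. The log2 fold change was 5.34 (SE 0.95), which did not pass in edgeR (adjusted p = 0.0905) and passed in DESeq2 (adjusted p = 1.64e-11). It was 4.72 without anti-CTHRC1 7 and 6.02 without IgG 14 in edgeR. Heart muscle markers varied in the same libraries. Of 15 on that list 9 were positive and 6 negative. The 3 that passed in edgeR were higher after anti-CTHRC1, with log2 fold changes of 4.24 (Myl7), 4.64 (Sln) and 2.52 (Myl4). Myl2 (-2.59) and Myl3 (-2.18) had the most negative values and did not pass in edgeR. Summed levels of the list were 273, 590 and 473 CPM in anti-CTHRC1 5, 7 and 39. In IgG 14, 18 and 20 they were 1029, 196 and 47.5 CPM. Within each group the libraries stood in the same order as for Nppa. None of the 15 was at 0 in any library. The part of these markers in the Nppa level was not tested. Nppb, the B-type peptide gene, was at 0.060 to 0.60 CPM after anti-CTHRC1 and 0 to 1.67 CPM after IgG. Nppc, the C-type peptide gene, was listed with 0 counts in all antibody libraries and 20, 51 and 0 counts in IgG 14, 18 and 20. It had too few counts for the edgeR test, and it did not pass in DESeq2 (adjusted p = 0.0595).

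Peptide processing genes gave values of both signs, and none passed in edgeR. Mme encodes neprilysin, the protease that degrades natriuretic peptides. It was at 29.7, 44.3 and 39.7 CPM in anti-CTHRC1 5, 7 and 39 and 18.4, 17.7 and 14.6 CPM in IgG 14, 18 and 20, with no overlap. Its log2 fold change of 1.16 (SE 0.18) had an adjusted p of 0.0701 in edgeR and 7.27e-06 in DESeq2, and edgeR called it when no filter on low counts was used (adjusted p = 0.0401). Corin, the protease that activates the atrial peptide, was at 0.73, 2.61 and 1.26 CPM after anti-CTHRC1 and 9.82, 15.1 and 0.98 CPM after IgG, so IgG 20 was as low as the antibody libraries (-2.50, SE 0.94, adjusted p = 0.258, edgeR, and 0.0188, DESeq2). The DESeq2 call was lost without anti-CTHRC1 5 or 39 or IgG 14 or 18 (adjusted p from 0.192 to 0.3), and the edgeR value was -2.39 without IgG 14 and -1.82 without IgG 18. The mesothelial markers were high in the same IgG 14 and 18, and their part in the Corin, Nppc and Pde1c levels was not tested. Pcsk6, which activates corin, stood at 0.31 (log2 fold change, SE 0.16, edgeR adjusted p = 0.382).

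**Figure D5:**
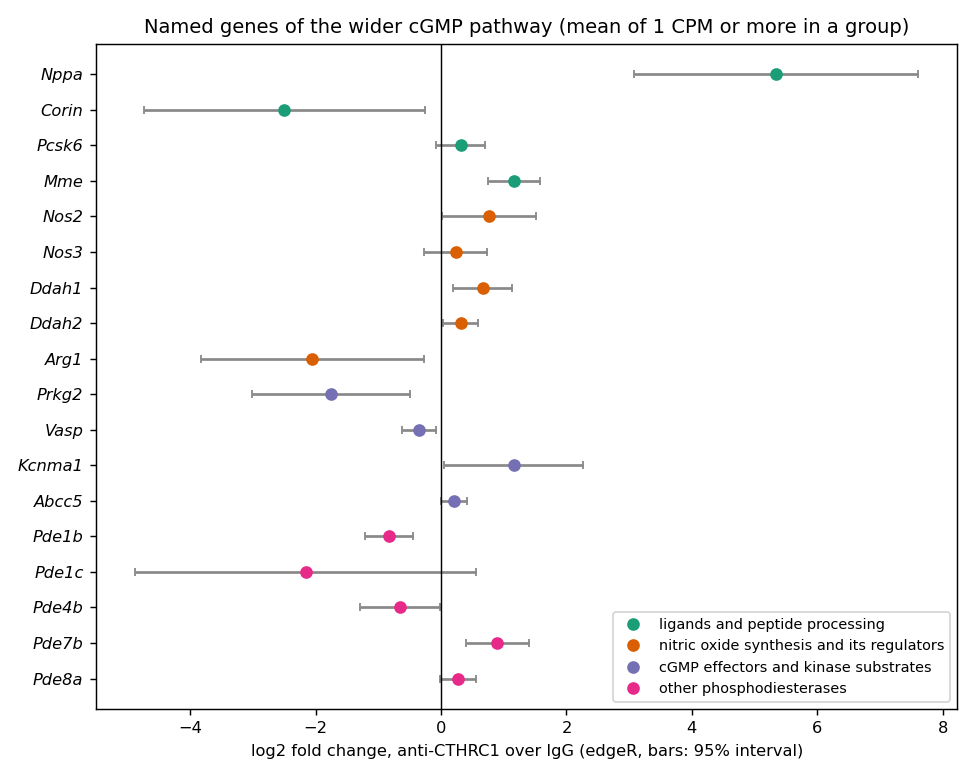
Log2 fold change, anti-CTHRC1 over IgG (x axis, edgeR, bars for the 95% interval), of the genes of the wider pathway that are named in the text and had a mean of 1 CPM or more in a group, coloured by list. None passed an adjusted p of 0.05 in edgeR. Nppa (5.34) lies furthest above 0, and Corin (-2.50), Pde1c (-2.16) and Arg1 (-2.05) lie furthest below.

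On the nitric oxide side 8 of 12 tested genes had positive values, with a median of 0.35. Nos3, the endothelial synthase, was at 36.4, 46.5 and 42.0 CPM in the antibody libraries and 25.1, 43.7 and 37.6 CPM in the IgG libraries, a log2 fold change of 0.23 (edgeR SE 0.21 and adjusted p 0.626). Ddah1, which breaks down an inhibitor of nitric oxide synthases, was at 172, 114 and 138 CPM after anti-CTHRC1 and 107, 75.1 and 85.0 CPM after IgG, with no overlap (0.67, SE 0.20, adjusted p = 0.192, edgeR, and 0.0303, DESeq2). DESeq2 still called Ddah1 without anti-CTHRC1 7 or IgG 14, and not without any of the other 4 libraries (adjusted p from 0.0971 to 0.178). Its relative Ddah2 had 0.31 and Nos2, the inducible synthase, 0.76, and neither passed in edgeR or DESeq2. Arg1, which competes with the synthases for arginine, was at 2.04, 0.80 and 3.44 CPM after anti-CTHRC1 and 15.5, 2.60 and 7.97 CPM after IgG (-2.05, SE 0.75, adjusted p = 0.246, edgeR, and 0.0228, DESeq2), overlapping at IgG 18. Without IgG 14, its highest library, Arg1 was at -1.34 in edgeR, and without anti-CTHRC1 39 at -2.61. DESeq2 called it without anti-CTHRC1 39 or IgG 18, and not without any of the other 4 (adjusted p from 0.0576 to 0.209).

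Other guanylyl cyclases were near the limit of detection, with a summed level of 1.19 to 2.34 CPM after anti-CTHRC1 and 0.475 to 1.95 CPM after IgG, and 3 of 6 were tested. Gucy1a2 and Gucy1b2, further subunits of the soluble enzyme, were at 1.56 CPM or less in every library, and so was Gucy2g. Gucy1a1 and Gucy1b1 were therefore the soluble cyclase subunits with levels above 2 CPM.

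Of 15 effectors and kinase substrates, 7 were positive and 8 negative, with a median of -0.01. Prkg2, the second cGMP kinase gene, was at 0.45, 0.43 and 0.39 CPM after anti-CTHRC1 and 1.98, 0.59 and 1.71 CPM after IgG (-1.75, SE 0.53, adjusted p = 0.196, edgeR). Vasp, a cytoskeletal substrate of the kinase, was at a log2 fold change of -0.35 (edgeR SE 0.11 and adjusted p 0.21), with no overlap. Kcnma1 encodes the pore subunit of the BK potassium channel that the kinase opens. It was at 53.4, 16.8 and 32.5 CPM in the antibody libraries and 11.2, 11.5 and 23.3 CPM in the IgG libraries, overlapping at IgG 20 (1.16, adjusted p = 0.28, edgeR, and 0.0654, DESeq2). The Kcnma1 value ran from 0.68 to 1.63 with single libraries left out. Abcc5, a pump that exports cGMP from cells, had 0.21 (SE 0.087, adjusted p = 0.282, edgeR).

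Of 15 other phosphodiesterases, 8 were positive and 7 negative, with a median of 0.10. Besides Pde1b, the named ones cleave cAMP. Pde7b was at 16.7, 11.0 and 10.8 CPM in anti-CTHRC1 5, 7 and 39 and 6.67, 7.51 and 6.50 CPM in IgG 14, 18 and 20, with no overlap (0.90, SE 0.21, adjusted p = 0.144, edgeR, and 0.0105, DESeq2). Pde4b had -0.65 (SE 0.27, adjusted p = 0.286, edgeR) and Pde8a 0.27 (SE 0.12, adjusted p = 0.323, edgeR). The phosphodiesterase genes therefore gave values of both signs, with Pde1a alone past the edgeR threshold.

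Reads on the other strand could reach some of these counts. Genes on the opposite strand shared 11.7% of the exon bases of Npr1, 5.7% of Npr2, 3.42% of Npr3, 5.82% of Pde3a and 0.559% of Pde5a, and these partner genes were at 2.66 CPM or less in every library. No such exon overlap was found for Gucy1a1, Gucy1b1, Prkg1 or Pde1a. The other spans of the members on GRCm38 were chromosome 3, 90450591 to 90465866 (Npr1, minus strand), chromosome 4, 43631935 to 43651244 (Npr2, plus), chromosome 15, 11839896 to 11907287 (Npr3, minus), chromosome 3, 122728947 to 122859374 (Pde5a, plus) and chromosome 6, 141249269 to 141507448 (Pde3a, plus).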

How the data were processed

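The authors deposited whole-number counts and FPKM values per gene and library in 1 table, per the file headers. A strand-marking kit for total RNA and paired-end reads were used, per the labels' protocols. HISAT2, StringTie, DESeq2 and GRCm38 are named in the submitters' processing notes. Versions, roles and the counting mode, strand included, are not given in the sources used here. The deposited FPKM equalled the count times 1 factor per gene and 1 per library, within 0.01 log2, in 98.1% of 12612 genes with 100 counts or more.

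The deposited counts were analysed with edgeR 4.0.16 in R 4.3.3 (TMM scaling, filterByExpr on the groups, robust quasi-likelihood F-test, two-sided, Benjamini-Hochberg adjustment over 19241 genes, threshold 0.05), with all 6 libraries and no covariate. CPM values were scaled by TMM. DESeq2 1.42.0 (21182 genes with an adjusted p), limma-voom and limma 3.58.1 on log2(FPKM + 1) and log2(FPKM + 0.1) were alternatives, with others on filters, scaling, left-out libraries and covariates. The biological coefficient of variation was 0.397. Library pairs within a group differed by more than sampling noise (chi-square 40.1 to 317 times its degrees of freedom).

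The members, lists and tests were chosen with earlier results of these data known. Named were all 9 members, Nppa, Nppb, Nppc and Nos3, and in each pathway list up to 4 tested genes with the smallest unadjusted p. Pde1c, Myl2, Myl3, Myl4, Myl7, Sln and the cell type genes were named after their values were seen. Tested on simulated data for this comparison (18651 genes, anti-CTHRC1 against IgG), the edgeR step found 34% of the 2-fold changes and 66% of the 4-fold changes and made 10 false calls. Coordinates are those of the table, and matched GENCODE M21 for all 9 members. Promoters are from RefSeq on GRCm38.p6. Ostn, Gucy2f and Irag2 were not analysed here, and Irag1 was read as Mrvi1, the symbol of the same gene in the table.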

Additional observations from a re-analysis of the deposited data

How the results depend on the processing

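The count of members that passed was 1 on all 6 libraries and 0 with limma-voom, with no filter on low counts, with library sizes free of mitochondrial and haemoglobin genes, with limma on log2(FPKM + 1), filtered or not, and on log2(FPKM + 0.1), without both anti-CTHRC1 39 and IgG 14, and with the contractile or the adipocyte covariate. Leaving out single libraries gave 0 to 1 members in edgeR and 1 to 4 in DESeq2 (0 to 4 over both). Other pathway genes that passed numbered 0 in edgeR, 1 with no filter, 2 at an adjusted p under 0.10 (the 0.1 threshold), 7 in DESeq2, and 5 to 11 in DESeq2 with single libraries left out. All genes that passed numbered 61, and 1584 in DESeq2, 95 with no filter, 98 with a mean of 5 CPM in 1 group, 234 at the threshold of 0.1, 0 with unfiltered log2(FPKM + 1), 0 without both anti-CTHRC1 39 and IgG 14, and 1 and 0 with the contractile and adipocyte covariates. With single libraries left out they numbered 0 to 227 in edgeR and 732 to 2506 in DESeq2. The median log2 fold change of the members, -0.47, was -0.23 and -0.25 with those covariates.

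Signs turned for these values. Leaving out single libraries gave -0.13 to 0.37 for Npr1, -0.22 to 0.10 for Npr3 and -0.23 to 0.045 for Pde5a. Without both anti-CTHRC1 39 and IgG 14, Npr1 was -0.14. The contractile covariate gave 0.14 for Npr3, 0.17 for Pde5a and -0.52 for Gucy1b2. The adipocyte covariate gave -0.40 for Npr1, 0.016 for Npr3, 0.20 for Gucy1a1 (-0.61 without a covariate), 0.24 for Pde5a, -3.68 for Gucy1b2 (0.88 without) and 0.036 for Pde4b (-0.65 without). Among genes near the limit of detection, Nppb was 1.36 in limma-voom and -1.17 to 3.58 with single libraries left out, and Gucy1a2 was -0.40 to 1.23. With single libraries left out, differences in log2 ratios ran from -0.0038 to 0.29 for Npr3 over Npr2 and from -0.28 to 0.084 for Gucy1a1 over Gucy1b1. Over the contractile list they ran from -0.45 to 0.26 for Gucy1a1, -0.19 to 0.17 for Gucy1b1, -0.20 to 0.13 for Prkg1 and -0.46 to 0.074 for Pde1a. The cause was not tested. No paired analysis was possible because the groups share no replicate number. With 3 libraries a group, 34% of the 2-fold changes placed in randomly drawn genes of the simulated counts were called. That share was not computed for genes at the levels of the members.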

Other observations

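The annotation deposited with the table holds its own cGMP-PKG signalling term, which was added as a list after the data were seen. It names 170 genes, 157 of them tested, among them 7 of the 9 members (Npr3 and Pde1a are not in it). Of the 157, 65 had positive and 92 negative log2 fold changes, with a median of -0.07. In edgeR 0 passed, while 15 were higher and 24 lower before adjustment (p under 0.05), where 7.8% of all genes were higher and 9.31% lower. Of the 157, DESeq2 called 8 higher and 11 lower. Of all 19241 genes tested in edgeR it called 584 higher and 863 lower. Of the 21182 genes with an adjusted p in DESeq2 it called 2.78% higher and 4.7% lower. In edgeR the smallest adjusted p of the term belonged to Adrb3, the beta-3 adrenergic receptor of fat cells. It was at 54.1, 111.8 and 86.0 CPM in anti-CTHRC1 5, 7 and 39 and 25.0, 13.5 and 12.7 CPM in IgG 14, 18 and 20 (log2 fold change 2.30, SE 0.36, adjusted p = 0.0726, edgeR). Adrb3 is also on the adipocyte list.

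Genes whose log2 CPM followed each member most closely over the 6 libraries were sought among 11006 genes with a named symbol and a mean of 5 CPM or more. The libraries share their scaling, and anti-CTHRC1 39 lay between 5 and 7, so the values only describe these libraries. For Pde1a they were Ubr7, Trmt1 and Rpl13. For Prkg1 they were Ncoa3, Snx9 and Plekhg3, for Pde3a Zfp568, Pdlim3 and Fbxo40, and for Pde5a Cnep1r1, Impact and Ptprz1. For Gucy1a1 they were Gtf2e2, Kif2a and Septin6, and for Gucy1b1 Lsm14a, Ext1 and Pawr. For the receptors they were mt-Rnr2, Egfl7 and Tada2b (Npr1), Ccn3, Mustn1 and Ctif (Npr2) and Rabgap1, Mkln1 and Xrn1 (Npr3). The likeness measure was Pearson r over 6 libraries, from 0.963 to 0.998.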
